A study of Mus musculus with 18 samples.

Results

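The livers compared here are those of caloric restriction against exercise on the low-fat diet: 3 libraries labelled LF+CR against 3 labelled LF+Ex, 6 of the 18 libraries of the study, taken by their titles. All 6 come from wild type C57BL/6J mice whose treatment began at 5 weeks of age and whose liver was taken at 62 weeks. The LF+CR mice had the LF diet with CR, the LF+Ex mice the LF diet with Ex, and the LF mice, the group that both treatments can be set against, the LF diet alone. HF+CR and HF+Ex livers, from mice on the HF diet given CR or Ex, serve as the same comparison on another diet. The labels use abbreviations throughout, and LF and HF are taken here to mean low-fat and high-fat, CR caloric restriction and Ex exercise, as is common in the field. They do not state the sex of the mice, whether each library came from 1 animal, how food was restricted or how the mice exercised, nor the time between the last meal or run and the taking of the liver. The p-values therefore measure the spread between these samples, which may be technical in part. PolyA RNA of whole, flash frozen liver was sequenced, and the deposited values are RPKM, reads per kilobase of transcript scaled to the mapped reads of the library. Of 23532 genes, 10356 reached 1 RPKM in 3 or more of the 18 libraries and were tested.

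Liver builds fatty acids from citrate and cholesterol from acetyl-CoA, and the enzymes of both routes are driven by the SREBP transcription factors, which are held back when sterols are plentiful and, for SREBP-1c, switched on by insulin. In rodents the liver also differs between the sexes: pulses of pituitary growth hormone in males and a steadier level in females act through STAT5 on genes of pheromone carriers, cytochromes P450 and transporters, with Cux2 and Bcl6 among the factors that maintain the pattern. Caloric restriction and exercise both take energy from the animal, the first by lower intake and the second by greater use, and liver is the organ that shifts fuel between meals.

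Between 9069 and 9525 genes reached 1 RPKM in each of the 6 libraries, and the steps between their lowest values point to roughly 26 to 46.7 M reads, an estimate from which no counting error was computed. Libraries of 1 group correlated across genes at r = 0.976 to 0.989 within LF+CR and 0.976 to 0.987 within LF+Ex, and at 0.94 to 0.974 between the groups. Transcripts of the exocrine pancreas, which lies beside the liver, were highest in LF+CR 1 and LF+Ex 1: the summed RPKM of 30 acinar markers was 2816, 5.04 and 9.74 in LF+CR livers and 50.2, 7.69 and 6.09 in LF+Ex livers. Prss2, a trypsinogen, was at 261, 0 and 0.457 RPKM in LF+CR livers and 5.92, 0 and 0 RPKM in LF+Ex livers, and Ctrb1, a chymotrypsinogen, at 615, 0.206 and 1.25 and 7.32, 0.431 and 0 RPKM. All 8 islet markers were listed at 0 in every library. LF+CR 1, LF+Ex 1 and HF+CR 1, which held acinar transcripts as well, are called the pancreas libraries, and results are given with and without them. Hepatocyte markers such as Trf, the iron carrier of plasma, stood at 12888, 10451 and 10196 RPKM in LF+CR livers and 7988, 8054 and 6655 RPKM in LF+Ex livers, as in liver, but Alb is listed at 0 in all 6 libraries, a value that cannot be read as absence. Sex chromosome genes were looked at after the sex-biased results had been seen: Xist was listed at 0 in all 6 libraries and reached at most 0.0184 RPKM in the 18, whereas the Y-linked genes Ddx3y, Eif2s3y, Kdm5d and Uty were above 0 in every library, with 6.47 to 9.42 RPKM of Ddx3y and 14 to 25.7 RPKM of Eif2s3y in the 6.

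LF+CR against LF+Ex asks which liver genes differ between long caloric restriction and long exercise when the diet is otherwise the same. LF+CR livers had more RNA of cholesterol and fatty acid synthesis and of female-biased genes, and less RNA of male-biased genes. With the Benjamini-Hochberg adjusted p of limma held under 0.05, a gene being called when it passes, 1059 of 10356 genes (10.2%) were called, 779 of them higher (7.52%) and 280 lower (2.7%) in LF+CR. The genes called higher differed less, with a median difference of 0.57 of log2(RPKM + 1), than those called lower, with -0.9, and 4 of the higher against 18 of the lower ones passed a difference of 4. Groups did not overlap for 2860 genes higher in LF+CR (27.6%) and 765 lower (7.39%). As deposited, the median of all genes lay at 0.132, and changes are to be read relative to that shift. After median-of-ratios scaling, which brings it to 0.0099, 856 genes were called, 363 higher and 493 lower, and after quantile normalization 839, 397 higher and 442 lower, so that the share of higher among called genes is 73.6% as deposited, 42.4% and 47.3%. Without LF+CR 1 the count was 379, without LF+CR 2 456, without LF+Ex 1 415 and without LF+Ex 3 483; without the pancreas libraries, which leaves 2 against 2, it was 116, 65 higher and 51 lower, and 115 of these are among the 1059.

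Cholesterol synthesis and uptake was higher in LF+CR almost along its whole length. Of 25 genes of the pathway 19 rose and 0 fell, and the median difference was 1.59 against 0.132 for all genes. In 24 of the 25 every LF+CR library was above every LF+Ex library, as it was in 27.6% of all genes. Insig1, the sterol sensor that holds SREBP back in the endoplasmic reticulum and is itself an SREBP target (chr5:28071412-28078662 on GRCm38.p6), was at 191, 165 and 138 RPKM in LF+CR livers and 23.2, 47 and 25.8 RPKM in LF+Ex livers. The groups were separated by more than their spread, with a difference of 2.38 ± 0.33 (adjusted p = 0.00054), and within LF+Ex, library 2 held the highest value.

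Enzymes of the middle of the route rose as well. Idi1, which isomerises isopentenyl diphosphate, was at 34.8, 31.9 and 37.8 RPKM in LF+CR livers and 2.3, 8.49 and 4.6 RPKM in LF+Ex livers (difference 2.67 ± 0.49, adjusted p = 0.00378). Sqle, squalene epoxidase, was at 10.6, 8.04 and 14.8 RPKM against 0.798, 1.95 and 1.17 RPKM in LF+Ex livers (2.39 ± 0.46, adjusted p = 0.00544), and Lss, which closes the sterol rings, at 15.6, 14.2 and 19.5 against 3.68, 5.51 and 2.72 RPKM (1.84 ± 0.26, adjusted p = 0.000702). Within LF+Ex, library 2 was again the highest for all 3 enzymes. All 6 members that were not called were on the positive side, among them Srebf2 (0.53 ± 0.17), which encodes SREBP-2, with Stard4 (0.89), Hsd17b7 (0.78), Ebp (0.26) and Tm7sf2 (0.21). The count was 14 without LF+CR 1, 13 without LF+Ex 1 and 5 without the pancreas libraries, where the median was still 1.39. Without the pancreas libraries the calls of Idi1 and Sqle were lost (adjusted p = 0.0847 to 0.0895).

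The promoter of Hmgcs1, which makes HMG-CoA from acetyl-CoA, is shown because it is the single one among 17 cholesterol genes with a RefSeq promoter window (GRCm38.p6, 250 bases before to 50 after the start) that holds the letters TCACNCCAC of a sterol regulatory element on either strand. Of 8278 tested genes with such a window 131 (1.58%) hold these letters. The match, in capitals, begins at position -137 from the start site, and the window is chr13:119690101-119690400 on the + strand, written 5′ to 3′.
Hmgcs1: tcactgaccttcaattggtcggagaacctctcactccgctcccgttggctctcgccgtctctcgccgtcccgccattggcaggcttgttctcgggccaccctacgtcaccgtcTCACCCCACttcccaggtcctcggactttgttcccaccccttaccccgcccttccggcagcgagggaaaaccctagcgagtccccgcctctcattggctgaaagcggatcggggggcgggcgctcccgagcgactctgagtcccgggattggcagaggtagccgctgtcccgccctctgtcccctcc
Hmgcs1 itself was at 67.2, 47.1 and 53.8 RPKM in LF+CR livers and 14.1, 15.5 and 25.5 RPKM in LF+Ex livers (1.59 ± 0.4, adjusted p = 0.0211), again without overlap. The letters are a description of the window and not a binding site in these data. The call was lost for Hmgcs1 without LF+CR 1, LF+Ex 1 or LF+Ex 2 (adjusted p = 0.0539 to 0.0866). Hmgcs1 was not called without the pancreas libraries (adjusted p = 0.218).

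**Figure D1:**
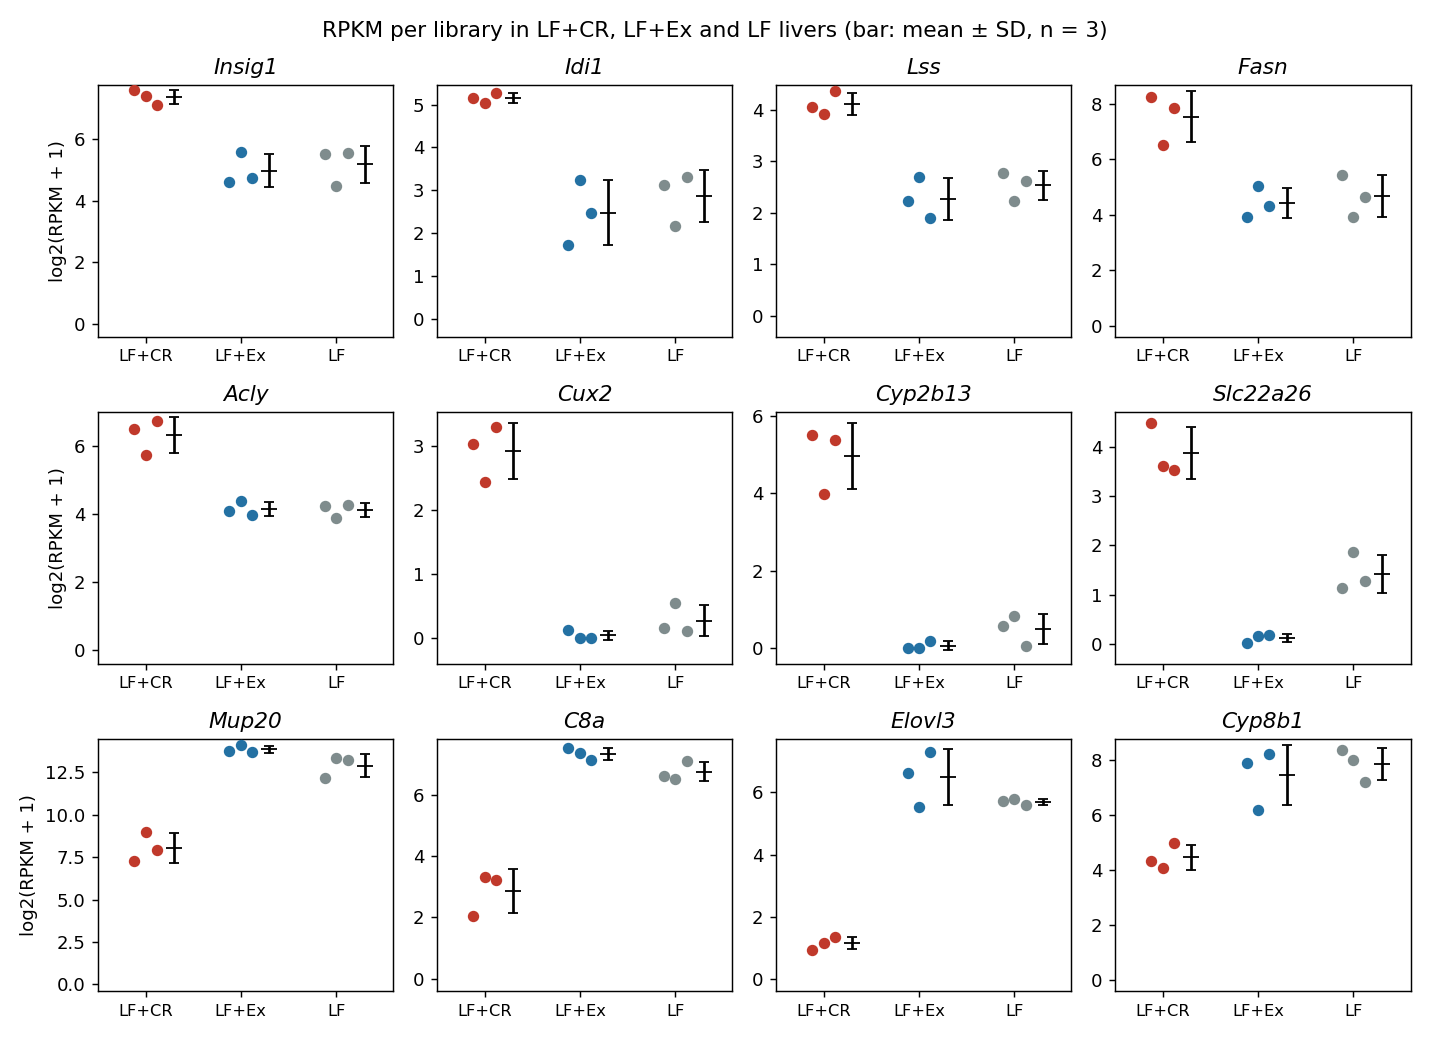
Level of 12 genes as log2(RPKM + 1), 1 point per library, in LF+CR, LF+Ex and LF livers, with the mean and SD of 3 libraries as a bar. In each of the 12 genes the 3 LF+CR points lie apart from the 3 LF+Ex points, above them for Insig1 to Slc22a26 and below them for Mup20 to Cyp8b1.

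Fatty acid synthesis was higher in LF+CR at its core enzymes. Of 24 genes 11 rose and 0 fell, with a median difference of 0.98. Fasn, fatty acid synthase (chr11:120805958-120825166), was at 308, 89.9 and 228 RPKM in LF+CR livers and 14.3, 31.6 and 19.1 RPKM in LF+Ex livers. Every LF+CR library was above every LF+Ex library, LF+CR 2 lay well under the other two, and the difference was 3.11 ± 0.47 (adjusted p = 0.00122). Acly, which splits citrate into acetyl-CoA, was at 87.8, 51.4 and 105 RPKM against 16, 19.7 and 14.5 RPKM in LF+Ex (2.17 ± 0.27, adjusted p = 0.000292). Acaca, the carboxylase that makes malonyl-CoA, was at 45.8, 27.1 and 50.2 against 8.95, 14.6 and 10.9 RPKM (1.73 ± 0.27, adjusted p = 0.00157). Elovl6, an elongase of palmitate, was at 74.5, 28.6 and 70.8 against 9.77, 13.2 and 10.2 RPKM (2.18 ± 0.38, adjusted p = 0.00299). LF+CR 2 was the lowest LF+CR library for all 4 enzymes. Mid1ip1, an activator of the carboxylase, was tight within LF+CR at 23.4, 22.5 and 26.2 RPKM against 5.98, 8.41 and 3.85 RPKM in LF+Ex (1.87 ± 0.22, adjusted p = 0.000177).

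The desaturases and the gene of SREBP-1 were not called. Scd1, the main hepatic desaturase, was at 3685, 2524 and 4619 RPKM in LF+CR livers and 1941, 1893 and 1609 RPKM in LF+Ex livers, without overlap but not called (0.95 ± 0.54, adjusted p = 0.264). Srebf1, the gene of SREBP-1, was at 65.5, 48.2 and 80.2 against 27.7, 53.4 and 14.6 RPKM, overlapping through LF+Ex 2 (1.15 ± 0.42, adjusted p = 0.0898). Fads1, Fads2, Elovl5 and Scd2 had differences of 0.41, 0.014, 0.17 and 0.23, none called. The 11 genes that rose also held Me1, malic enzyme (1.68), Acss2, which activates acetate (1.62), and Pnpla3 (1.81). Pnpla3 reaches 1 RPKM in 3 libraries only when LF+CR is counted, so the filter selected it for a high level there. With the pancreas libraries left out, 3 genes of the list were higher and 1 lower (Agpat2, an acyltransferase of phosphatidic acid synthesis, at -1.04, which was not called with all libraries), with a median of 0.99. The 2 against 2 comparison without the pancreas libraries did not call Fasn, Acaca and Elovl6 (adjusted p = 0.0509 to 0.0766).

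Glucose handling genes rose together with those of lipid synthesis. Of 28 genes of glycolysis, the pentose phosphate pathway and glycogen 14 were higher and 0 lower in LF+CR, with a median of 0.57. Ppp1r3g, a glycogen-targeting subunit of protein phosphatase 1 (chr13:35958824-35970388), was at 8.05, 13 and 6.82 RPKM in LF+CR livers and 0.55, 0.498 and 0.161 RPKM in LF+Ex livers. All LF+CR libraries were far above LF+Ex, with a difference of 2.84 ± 0.37 (adjusted p = 0.00038), but Ppp1r3g was tested only because LF+CR is high. Without that group it reaches 1 RPKM in fewer than 3 libraries, so its place among the 14 is no independent support. Gbe1, the glycogen branching enzyme, was at 55.1, 58.1 and 57 against 22, 35.9 and 32.5 RPKM (0.92 ± 0.15, adjusted p = 0.00235). Gpi1, glucose phosphate isomerase, was at 165, 107 and 153 against 69.1, 72.5 and 67.5 RPKM (0.99 ± 0.18, adjusted p = 0.00437), and Pgk1, phosphoglycerate kinase, at 253, 232 and 208 against 150.0, 161 and 145 RPKM (0.6 ± 0.1, adjusted p = 0.00197). The NADPH-making enzymes G6pdx (1.55 ± 0.3, adjusted p = 0.00664) and Pgd (1.35 ± 0.33, adjusted p = 0.0181) were both among the 14. The count was 8 without LF+CR 1, 8 without LF+Ex 1, 8 without LF+Ex 3 and 2 without the pancreas libraries, where the median stayed at 0.53. Setting the pancreas libraries aside ended the calls of Gpi1 and Pgk1 (adjusted p = 0.0515 to 0.0805).

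Genes of the fasted state gave few calls, 4.17% of the list where 10.2% of all genes were called. Such a count says nothing particular of the list. Of 24 genes of fasting and insulin signalling 1 was called, Klf15, a transcription factor of amino acid breakdown in the fasted liver, at 96.6, 99.4 and 77.7 RPKM in LF+CR livers and 54.7, 74.3 and 51 RPKM in LF+Ex livers (0.61 ± 0.16, adjusted p = 0.0279). Pck1, the gluconeogenic carboxykinase, was at 1679, 1853 and 1442 against 1888, 1869.8 and 753 RPKM and G6pc, glucose-6-phosphatase, at 78, 92.8 and 39.6 against 81.2, 44.4 and 72.8 RPKM. Both overlapped between the groups (differences 0.25 ± 0.34 and 0.042 ± 0.4, adjusted p = 0.671 and 0.959). Ppargc1a, the coactivator of the fasting response, was at 3.75, 2.03 and 3.05 against 2.27, 2.07 and 1.35 RPKM (0.43 ± 0.19, adjusted p = 0.16). The fasting count was 0 after median-of-ratios scaling and 2 without LF+Ex 2. In amino acid breakdown and the urea cycle 7 of 42 genes rose and 0 fell, with a median of 0.1, under that of all genes. The 7 are 16.7% of the list, where 7.52% of all genes were called higher. Tat, tyrosine aminotransferase (chr8:109986078-109999804), was at 1432, 1168 and 890.1 RPKM against 398, 379 and 219 RPKM in LF+Ex (1.83 ± 0.22, adjusted p = 0.000265), and Arg1, the last enzyme of the urea cycle, at 894, 906 and 876 against 503, 655 and 385 RPKM (0.83 ± 0.16, adjusted p = 0.00588). After median-of-ratios scaling the list had 2 higher and 1 lower and a median of -0.046. The count of 7 was 2 without LF+CR 1, 3 without LF+CR 2, 2 without LF+Ex 1, 2 without LF+Ex 3 and 1 without the pancreas libraries. Of these genes, the call was lost in Klf15 without LF+CR 1, LF+CR 2, LF+Ex 1 or LF+Ex 3 (adjusted p = 0.0957 to 0.12). Without the pancreas libraries the calls of Klf15 and Arg1 were lost (adjusted p = 0.0956 to 0.255).

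Fatty acid oxidation and other PPAR alpha targets leaned the other way. Of 43 genes 6 were lower and 0 higher in LF+CR, with a median of -0.24. The 6 are 14% of the list, where 2.7% of all genes were called lower. Cyp4a32, an omega-hydroxylase of fatty acids, was at 7.48, 11.5 and 10.2 RPKM in LF+CR livers and 37.9, 30.7 and 32.5 RPKM in LF+Ex livers (-1.71 ± 0.15, adjusted p = 9.61e-06). Vnn1, pantetheinase, was at 10.2, 18.6 and 17.2 against 52.5, 25.6 and 97.2 RPKM (-1.71 ± 0.36, adjusted p = 0.00894). Neither overlapped between the groups. Creb3l3, a fasting-induced membrane-bound factor, was at 79.8, 98.7 and 90.9 against 146, 122 and 122 RPKM (-0.53 ± 0.095, adjusted p = 0.00356). Cyp4a14, a strongly induced PPAR alpha target of mouse liver, overlapped at 1075, 928 and 453 against 1168, 402 and 887 RPKM (0.039 ± 0.44, adjusted p = 0.965). The count was 2 without LF+CR 1, 3 without LF+Ex 1, 14 without LF+Ex 2, 1 without the pancreas libraries and 12 after median-of-ratios scaling. When 1 library was left out, the call was lost for Vnn1 without LF+CR 1 (adjusted p = 0.0501). Vnn1 and Creb3l3 were not called without the pancreas libraries (adjusted p = 0.109 to 0.144).

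Lipid droplet and uptake genes were lower at 3 of 23 members and higher at 1. Of all genes 2.7% were called lower and 7.52% higher, so the 1 higher member says nothing particular of the list. Fitm1, an endoplasmic reticulum protein that partitions fat into droplets, was at 9.52, 13.9 and 16.6 RPKM in LF+CR livers and 51.9, 33.1 and 83.8 RPKM in LF+Ex livers (-1.93 ± 0.44, adjusted p = 0.0136), and its relative Fitm2 at 11.7, 13.1 and 17.9 against 33.1, 20.5 and 24.6 RPKM (-0.83 ± 0.2, adjusted p = 0.017). Mgll, monoglyceride lipase, overlapped between the groups and was just called (-0.77 ± 0.23, adjusted p = 0.0474). Pparg, the adipogenic receptor, went the other way at 7.32, 8.6 and 7.18 against 0.307, 2.31 and 2.1 RPKM (1.87 ± 0.43, adjusted p = 0.0137). The droplet proteins varied most within LF+Ex: Cidec was at 1.62, 1.39 and 1.47 against 8.76, 2.01 and 28.9 RPKM and Cidea at 0, 0 and 0.056 against 0.85, 0 and 28.2 RPKM. LF+Ex 3 held most of both, and neither was called (-1.94 ± 0.82 and -1.89 ± 1, adjusted p = 0.142 and 0.236). Plin4, a droplet coat protein, was at 2.54, 2.53 and 4.24 against 11.1, 4.38 and 21.5 RPKM (-1.49 ± 0.51, adjusted p = 0.0731), and Cd36, the fatty acid translocase, at 24.3, 25.7 and 20.2 against 9.05, 4.7 and 32.6 RPKM (0.96 ± 0.5, adjusted p = 0.227). The number of lower members was 0 without LF+CR 1, 1 without LF+CR 2, 1 without LF+Ex 1, 6 without LF+Ex 2, 5 after median-of-ratios scaling and 0 without the pancreas libraries. Leaving out 1 library ended the call of Fitm1 without LF+CR 1 or LF+Ex 3 (adjusted p = 0.0652), Fitm2 without LF+CR 1, LF+CR 2 or LF+Ex 1 (adjusted p = 0.0648 to 0.081), Mgll without LF+CR 1, LF+CR 2, LF+CR 3, LF+Ex 1 or LF+Ex 3 (adjusted p = 0.0637 to 0.182) and Pparg without LF+CR 2 or LF+Ex 1 (adjusted p = 0.0542 to 0.068). The 2 against 2 comparison without the pancreas libraries did not call Fitm1, Fitm2, Mgll and Pparg (adjusted p = 0.14 to 0.237).

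Male-biased genes had the largest median difference of the lists. Of 25 genes known to be more abundant in male mouse liver 20 fell in LF+CR and 0 rose, with a median of -2.61. Groups did not overlap in 22 of them, all lower, as in 7.39% of all genes. Mup20, the male pheromone darcin of the major urinary proteins (chr4:62011337-62054143), was at 151, 498 and 242 RPKM in LF+CR livers and 13873, 17743 and 13665 RPKM in LF+Ex livers. The lowest LF+Ex library was far above the highest LF+CR library (-5.83 ± 0.44, adjusted p = 2.06e-06). Elovl3, a male-biased elongase of very long fatty acids (chr19:46131897-46135694), was at 0.911, 1.22 and 1.52 against 97.6, 45.3 and 159 RPKM (-5.35 ± 0.66, adjusted p = 0.000272). Slco1a1, which takes up organic anions and is male-predominant (chr6:141907281-141946962), was at 0.122, 0.159 and 0.204 against 70.1, 61.4 and 20.3 RPKM (-5.29 ± 0.8, adjusted p = 0.00116). In Slco1a1 LF+Ex 3 lay lowest of the LF+Ex libraries, and so it did in the next 2 genes. Serpina1e, an alpha-1-antitrypsin form, was at 3.68, 3.96 and 17 against 1253, 773 and 185 RPKM (-6.24 ± 0.97, adjusted p = 0.00156), and Hsd3b5, a steroid dehydrogenase of male liver, at 0, 0.0143 and 0 against 90.4, 71.3 and 23.2 RPKM (-5.76 ± 1.32, adjusted p = 0.0137). Cyp4a12a, a fatty acid hydroxylase driven by androgen and growth hormone, was at 0.12, 4.54 and 1.59 against 90, 58.7 and 96.7 RPKM (-5 ± 0.54, adjusted p = 0.000108).

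The other major urinary protein genes among the largest differences fell too. Mup21 was at 6.08, 24 and 15.2 RPKM in LF+CR livers and 633, 609 and 441 RPKM in LF+Ex livers (-5.29 ± 0.72, adjusted p = 0.000537), Mup14 at 4.61, 4.89 and 14.6 against 352, 188 and 351 RPKM (-5.16 ± 1.1, adjusted p = 0.0101), and Mup11 at 0, 0 and 0.269 against 42.6, 47.5 and 35.6 RPKM (-5.3 ± 0.99, adjusted p = 0.00475). Mup1 and Mup2 had differences of -5.56 ± 1.34 and -4.69 ± 1.4 (adjusted p = 0.0179 and 0.0449), and the serpin pseudogene Serpina4-ps1 one of -4.72 ± 1.13 (adjusted p = 0.0177). Mup and Serpina1 genes are near-identical copies whose reads the authors' counting could split, so the values of single members are uncertain, as are those within Cyp4a12a and Cyp4a12b. The 5 male-biased genes not called were Bcl6 (-0.06), a repressor that growth hormone keeps low in females, Selenbp2 (-0.68), Gstp1 (-0.81), Gstp2 (0.66) and Cyp2j5 (-0.55). On the list mean, given as the distance from the mean of the 18 libraries in log2(RPKM + 1), LF+CR libraries lay at -2.25 to -1.48 and LF+Ex libraries at 0.86 to 1.44, with LF libraries between them at -0.11 to 0.72. Without the pancreas libraries 11 genes were lower and the median was -2.13, while the summed acinar markers of the 4 remaining libraries were 5.04 and 9.74 RPKM in LF+CR and 7.69 and 6.09 RPKM in LF+Ex. The call was lost for Hsd3b5 without LF+CR 1 or LF+Ex 1 (adjusted p = 0.0505 to 0.0579), Mup1 without LF+CR 1, LF+CR 2 or LF+Ex 1 (adjusted p = 0.0663 to 0.0748), Mup2 without LF+CR 1, LF+CR 2, LF+CR 3, LF+Ex 1 or LF+Ex 3 (adjusted p = 0.0677 to 0.147) and Serpina4-ps1 without LF+CR 1, LF+CR 2 or LF+Ex 1 (adjusted p = 0.0581 to 0.0786). Setting the pancreas libraries aside ended the calls of Serpina1e, Hsd3b5, Mup14, Mup11, Mup1, Mup2 and Serpina4-ps1 (adjusted p = 0.0509 to 0.209).

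Complement genes of the terminal pathway were among the male-biased genes that fell. C8a, a chain of the membrane attack complex (chr4:104815679-104876487), was at 3.13, 8.95 and 8.33 RPKM in LF+CR livers and 182, 162 and 138 RPKM in LF+Ex livers (-4.46 ± 0.3, adjusted p = 6.92e-07). C9, which forms the pore, was at 20, 37.7 and 39 against 163, 173 and 142 RPKM (-2.32 ± 0.27, adjusted p = 0.000184), and C6, which belongs to the complement list, at 2.73, 6.79 and 7.19 against 82.8, 73.8 and 44.5 RPKM (-3.41 ± 0.36, adjusted p = 0.000106). In all 3 genes every LF+CR library was below every LF+Ex library and LF+CR 1 was the lowest of all. C8b, the partner chain of C8a, had a difference of -2.68 ± 0.35 (adjusted p = 0.000406).

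Female-biased genes moved in the opposite direction. Of 24 genes 19 rose in LF+CR and 2 fell, with a median of 1.57, and 10 more of the 34 genes written for the list were too low to be tested. Of those tested 3, Cux2 among them, reach 1 RPKM in 3 libraries only when LF+CR is counted. The level filter thus selected these 3 for a high level there, and their calls are no independent support. Cux2, a female-specific repressor of male-biased genes (chr5:121857962-122050415), was at 7.23, 4.45 and 8.82 RPKM in LF+CR livers and 0.09, 0.00616 and 0 RPKM in LF+Ex livers. Every LF+Ex library held under 0.1 RPKM (2.88 ± 0.18, adjusted p = 4.40e-07). Cyp2b13, a female-specific cytochrome P450 (chr7:26061388-26096197), was at 44.9, 15 and 40.7 against 0, 0 and 0.147 RPKM (4.9 ± 0.4, adjusted p = 5.47e-06), and Cyp2b9, its neighbour, at 174, 234 and 200.1 against 0.244, 0.969 and 13.7 RPKM (5.93 ± 0.74, adjusted p = 0.000292). LF+CR 2 held the least Cyp2b13 of the LF+CR libraries and the most Cyp2b9. Cyp2a4, a steroid 15-alpha-hydroxylase, was at 491, 597 and 871 against 0.588, 1.63 and 10.6 RPKM, the largest difference of the named genes at 7.45 ± 1.55 (adjusted p = 0.00891).

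The organic anion transporters Slc22a26 and Slc22a27 were on the female side as well. Slc22a26 (chr19:7780094-7802667) was at 21.3, 11.3 and 10.5 RPKM in LF+CR livers and 0.0137, 0.117 and 0.136 RPKM in LF+Ex livers (3.75 ± 0.24, adjusted p = 5.68e-07), and Slc22a27 at 20.8, 18.3 and 15.1 against 0.0718, 0.708 and 0.487 RPKM (3.76 ± 0.36, adjusted p = 3.01e-05). Hamp2, a hepcidin form more abundant in female liver, was at 3279.9, 2447 and 4589.6 against 1134, 1039 and 529 RPKM (1.96 ± 0.43, adjusted p = 0.0118). The 2 that fell, named after their values were seen, were Lifr, the receptor of leukemia inhibitory factor (-1.31 ± 0.34, adjusted p = 0.0258), and Serpinb1a, an inhibitor of neutrophil proteases (-1.66 ± 0.41, adjusted p = 0.0212). Cyp17a1 (0.52), Ntrk2 (-0.32) and Atp6v0d2 (0.27) were not called. The list mean was 1.29 to 1.48 in LF+CR libraries, -0.79 to -0.54 in LF+Ex libraries and -0.069 to 0.16 in LF libraries. Outside the pancreas libraries 11 genes were higher and 0 lower, and the median was 1.58. Reads of Cyp2b9 and Cyp2b13, of Cyp2a4 and Cyp2a5 and of Slc22a26 and Slc22a27 may be split between copies. With 1 library left out, limma no longer called Hamp2 without LF+Ex 3 (adjusted p = 0.0577). The count of 2 lower genes was 0 without LF+CR 1, LF+CR 2 or LF+Ex 1, and 1 without LF+CR 3 or LF+Ex 3. Without the pancreas libraries the calls of Cyp2a4 and Hamp2 were lost (adjusted p = 0.0916 to 0.107).

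The promoters of C8a and Slc22a26 belong to 1 male-biased and 1 female-biased gene that are called in every alternative that tested them. They are shown because they also hold the letters TTCNNNGAA, to which STAT factors bind, on either strand. These letters are in 672 of 8278 windows (8.12%), in 3 of 19 windows of male-biased and 4 of 16 of female-biased genes. The windows are chr4:104876349-104876648 and chr19:7802618-7802917, both on the - strand of GRCm38.p6 as given by RefSeq and written 5′ to 3′ along the gene, with the match in capitals at positions -228 and -141 from the start.
C8a: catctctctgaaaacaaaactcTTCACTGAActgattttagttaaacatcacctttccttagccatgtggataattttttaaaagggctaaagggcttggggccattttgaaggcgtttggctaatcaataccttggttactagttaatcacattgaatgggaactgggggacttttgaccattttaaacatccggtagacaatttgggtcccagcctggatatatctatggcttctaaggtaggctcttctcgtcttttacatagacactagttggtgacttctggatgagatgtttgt
Slc22a26: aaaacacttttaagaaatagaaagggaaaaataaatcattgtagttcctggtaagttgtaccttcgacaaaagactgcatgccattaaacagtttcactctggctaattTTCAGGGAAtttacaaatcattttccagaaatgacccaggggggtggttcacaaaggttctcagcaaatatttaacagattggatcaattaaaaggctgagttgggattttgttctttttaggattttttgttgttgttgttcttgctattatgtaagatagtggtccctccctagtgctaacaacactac
C8a was lower and Slc22a26 higher in LF+CR with the same letters, and nothing on the factor follows from them. Of 607 windows of genes called higher 42 (6.92%) and of 215 windows of genes called lower 20 (9.3%) hold them. A direct repeat of AGGTCA with 1 base between the copies was in 3 of the 8278 windows and in none of those of the 5 lists searched, which are the cholesterol, fatty acid synthesis, fatty acid oxidation, male-biased and female-biased genes.

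Growth hormone signalling gave 1 call in 16 genes, or 6.25%, where 10.2% of all genes were called. That count says nothing particular of the list. The gene was Igfals, the subunit that keeps IGF-1 in the circulation. It was at 22.9, 24.6 and 31.7 RPKM in LF+CR livers and 83.5, 58.8 and 46.1 RPKM in LF+Ex livers (-1.19 ± 0.3, adjusted p = 0.0228). Igf1 was at 13.9, 21.1 and 23.3 against 33.1, 29.4 and 21 RPKM, overlapping through LF+Ex 3 (-0.5 ± 0.21, adjusted p = 0.14). Socs2, a feedback inhibitor that growth hormone induces, was at 4.41, 3.69 and 3.55 against 8.49, 5.54 and 2.61 RPKM (-0.32 ± 0.47, adjusted p = 0.702). Taking out 1 library ended the call of Igfals without LF+CR 1, LF+CR 2 or LF+Ex 1 (adjusted p = 0.0774 to 0.096, differences of -0.97 to -1.15). Igfals was not called without the pancreas libraries (adjusted p = 0.247).

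Xenobiotic metabolism was higher in LF+CR at 12 of 45 genes and lower at 1, with a median of 0.51. Together they are 28.9% of the list, where 10.2% of all genes were called. Gstm3, a glutathione transferase, was at 329.9, 467 and 247 RPKM in LF+CR livers and 10.2, 36.3 and 29.3 RPKM in LF+Ex livers (3.86 ± 0.99, adjusted p = 0.0242). Cyp2b10, a target of the constitutive androstane receptor, was at 6.99, 12.8 and 4.6 against 0.0655, 0.225 and 1.4 RPKM (2.54 ± 0.4, adjusted p = 0.00157). Cyp2c39, a retinoic acid hydroxylase, was at 5.31, 4.38 and 4.72 against 0.491, 0.806 and 1.04 RPKM (1.72 ± 0.24, adjusted p = 0.00069), and Cyp2c38 at 80.2, 90.1 and 58.7 against 12.6, 18.6 and 26.5 RPKM (1.97 ± 0.33, adjusted p = 0.00236). All 4 were without overlap. Cyp2f2, which oxidises naphthalene and marks periportal hepatocytes, was the 1 that fell, at 139, 199 and 269 against 863, 725 and 627 RPKM (-1.9 ± 0.21, adjusted p = 0.00016). In the NRF2 list 2 of 22 genes rose, a share near the 7.52% of all genes called higher: Gstm3 and the quinone reductase Nqo1, at 15, 12 and 9.08 against 2.12, 2.96 and 3.53 RPKM (1.75 ± 0.49, adjusted p = 0.0359). The xenobiotic count was 5 without LF+CR 1, 5 without LF+CR 2, 5 without LF+Ex 1, 7 without LF+Ex 3, 2 without the pancreas libraries and 8 after median-of-ratios scaling. Of these genes, the call was lost in Gstm3 without LF+CR 1, LF+CR 2, LF+Ex 1 or LF+Ex 3 (adjusted p = 0.0578 to 0.0938) and Nqo1 without LF+CR 1, LF+CR 2, LF+Ex 1, LF+Ex 2 or LF+Ex 3 (adjusted p = 0.0659 to 0.127). The 2 against 2 comparison without the pancreas libraries did not call Gstm3, Cyp2b10, Cyp2c38 and Nqo1 (adjusted p = 0.0509 to 0.206).

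Bile acid genes moved in both directions. Of 26 genes 4 rose and 5 fell, and the median was 0.0023. Called genes made up 34.6% of the list, beside 10.2% of all genes. Cyp8b1, the sterol 12-alpha-hydroxylase that sets the share of cholic acid (chr9:121914356-121916305), was at 19.1, 15.8 and 30.2 RPKM in LF+CR livers and 237, 72.1 and 295 RPKM in LF+Ex livers (-2.98 ± 0.48, adjusted p = 0.00178). The side-chain enzymes Acox2, at 52.9, 39.8 and 42.4 against 78.4, 71.8 and 75.3 RPKM (-0.74 ± 0.12, adjusted p = 0.00238), and Scp2, at 687, 808 and 707 against 1508, 1145 and 1477 RPKM (-0.9 ± 0.13, adjusted p = 0.000962), fell too. So did Hsd3b7 (-1.04), a dehydrogenase of the sterol ring, and Amacr (-0.5), a racemase of the side chain. Of the 4 that rose, Slco1a4, an uptake transporter, was at 32.5, 34.4 and 30.4 against 4.73, 10.3 and 7.21 RPKM (2.04 ± 0.29, adjusted p = 0.000728), beside the exporters Slc51b (2.47) and Abcc2 (0.51) and the reductase Akr1d1 (0.83). Slc51b was tested only through its level in LF+CR, so the filter selected it for a high level there. Cyp7a1, the rate-limiting enzyme, was at 4.59, 26.3 and 18 against 19.1, 17.2 and 13.8 RPKM, with LF+CR 1 lowest of all 6 (-0.3 ± 0.5, adjusted p = 0.737); without the pancreas libraries the difference was 0.473. Without these libraries 1 gene was higher and 4 were lower, and the count of 4 higher genes was 2 without LF+CR 1, 2 without LF+CR 2, 2 without LF+Ex 1 and 1 without LF+Ex 3.

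Plasma protein genes of innate defence were lower at a number of members. In complement and coagulation 8 of 32 genes fell and 1 rose, with a median of -0.17. Called genes were 28.1% of that list and 19.2% of the acute phase list, where 10.2% of all genes were called. C4bp, an inhibitor of the classical pathway, was at 108, 126 and 140.1 RPKM in LF+CR livers and 211, 219.9 and 233 RPKM in LF+Ex livers (-0.83 ± 0.1, adjusted p = 0.000292), and Mbl1, a mannose-binding lectin, at 104, 86.4 and 82.3 against 199.8, 149 and 189 RPKM (-0.97 ± 0.17, adjusted p = 0.00338). Serping1, the C1 inhibitor, was at 209, 273 and 311 against 479, 471 and 372 RPKM (-0.75 ± 0.14, adjusted p = 0.00505). No library of these 3 genes overlapped between the groups. The 1 that rose, named after its value was seen, was antithrombin, Serpinc1 (0.42 ± 0.087, adjusted p = 0.00842). In the acute phase list 4 of 26 fell and 1 rose: Saa1, serum amyloid A, was at 5.45, 5.53 and 6.12 against 24.3, 23.1 and 116 RPKM (-2.63 ± 0.6, adjusted p = 0.0137), its copy Saa2 had -2.62, and Saa4 was at 56.7, 66.5 and 53.5 against 114, 114 and 117 RPKM (-0.96 ± 0.17, adjusted p = 0.00302). LF+Ex 3 held far more Saa1 than the other LF+Ex libraries. Serpina3n fell as well (-0.62 ± 0.16, adjusted p = 0.0249), and Apcs, serum amyloid P, rose (0.92 ± 0.24, adjusted p = 0.024). With the pancreas libraries left out, 3 complement and coagulation genes, all lower, and 0 acute phase genes were called. The 8 lower complement and coagulation genes were 4 without LF+CR 1, 5 without LF+CR 2, 4 without LF+Ex 1 and 4 without LF+Ex 3, and the 4 acute phase genes 1 without LF+CR 1, 2 without LF+Ex 1 and 1 without LF+Ex 3. When 1 library was left out, the call was lost for Saa1 without LF+CR 1 or LF+Ex 3 (adjusted p = 0.0512 to 0.0584), Serpina3n without LF+CR 1, LF+Ex 1, LF+Ex 2 or LF+Ex 3 (adjusted p = 0.0531 to 0.121) and Apcs without LF+CR 1, LF+CR 2, LF+Ex 1 or LF+Ex 2 (adjusted p = 0.0524 to 0.105). Setting the pancreas libraries aside ended the calls of Serping1, Saa1, Saa4, Serpina3n and Apcs (adjusted p = 0.0624 to 0.259).

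Interferon-induced genes were lower at 5 of 35 members, with a median of -0.2 and none higher. The 5 are 14.3% of the list, where 2.7% of all genes were called lower. Tap1, a peptide transporter of antigen presentation, was at 1.45, 2.34 and 3.23 RPKM in LF+CR livers and 4.77, 6.05 and 6.74 RPKM in LF+Ex livers (-1.06 ± 0.18, adjusted p = 0.00235), and Irf9, a subunit of the interferon-activated factor ISGF3, at 1.32, 0.957 and 2.6 against 7.45, 5.78 and 3.97 RPKM (-1.37 ± 0.27, adjusted p = 0.00631). Ifi27 (-1.21 ± 0.3, adjusted p = 0.0211), Rtp4 (-0.72 ± 0.17, adjusted p = 0.0181) and the immunoproteasome gene Psmb9 (-1.16 ± 0.32, adjusted p = 0.0343) were the others. Markers of the immune cells that could carry these transcripts were not called: 0 of 12 macrophage, 0 of 6 lymphocyte, 0 of 2 neutrophil and 0 of 6 class II genes, with medians of -0.27, -0.2, -0.52 and -0.35. The summed RPKM of the macrophage markers was 118, 154 and 173 in LF+CR livers and 163, 164 and 232 in LF+Ex livers, which overlap, and their part in the interferon result was not tested. In whole tissue, fewer cells of a type and less RNA per cell cannot be told apart. The count of 5 was 2 without LF+CR 1, 2 without LF+CR 2, 9 without LF+CR 3, 3 without LF+Ex 1 and 2 without LF+Ex 3. It was 8 after median-of-ratios scaling, 9 after quantile normalization and 1, Tap1, without the pancreas libraries. Leaving out 1 library ended the call of Ifi27 without LF+CR 1, LF+CR 2, LF+Ex 2 or LF+Ex 3 (adjusted p = 0.0538 to 0.0906) and Rtp4 without LF+CR 1, LF+CR 2, LF+Ex 1 or LF+Ex 3 (adjusted p = 0.0503 to 0.0933). Without the pancreas libraries the calls of Irf9, Ifi27 and Rtp4 were lost (adjusted p = 0.132 to 0.183).

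Mitochondrial and ribosomal genes gave small differences. Of 75 genes of oxidative phosphorylation 17 rose and 0 fell, with a median of 0.23; Cycs, cytochrome c, was at 58.7, 59.4 and 48.3 RPKM in LF+CR livers and 32.6, 33.5 and 33.7 RPKM in LF+Ex livers (0.71 ± 0.11, adjusted p = 0.00122). Of 76 ribosomal protein genes 13 rose and 0 fell, with a median of 0.38; Rpl24 was at 239.6, 235 and 205 against 148, 177 and 131 RPKM (0.58 ± 0.13, adjusted p = 0.0124). Beside the shift of all genes, 0.132, both medians are higher, and all 76 ribosomal genes were positive. The called genes were 22.7% of oxidative phosphorylation and 17.1% of ribosomal protein genes, where 7.52% of all genes were called higher. After median-of-ratios scaling the medians were 0.076 and 0.22 beside 0.0099 for all genes, with 3 and 2 genes called, and without the pancreas libraries none was. The count of oxidative phosphorylation genes was 5 without LF+CR 1, 6 without LF+CR 2, 6 without LF+Ex 1 and 6 without LF+Ex 3. That of ribosomal protein genes was 0 without LF+CR 1, 1 without LF+CR 2, 23 without LF+CR 3, 2 without LF+Ex 1, 20 without LF+Ex 2 and 0 without LF+Ex 3. The call was lost for Rpl24 without LF+CR 1, LF+CR 2 or LF+Ex 3 (adjusted p = 0.0511 to 0.0583). Cycs and Rpl24 were not called without the pancreas libraries (adjusted p = 0.0509 to 0.152).

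Lists with fewer calls are given by their counts, which are to be read against the 7.52% of all genes called higher and the 2.7% called lower. The secreted factors Inhbe and Inhbc, subunits of activins made by hepatocytes, were the 2 of 18 hepatokine genes that fell (-1.46 ± 0.33 and -0.93 ± 0.21, adjusted p = 0.0128 and 0.0132), and 0 rose. Of 20 iron and zinc genes Hamp2, Trf and Bmp6 rose, the last a hepcidin inducer of endothelial cells (0.65 ± 0.19, adjusted p = 0.039). None of 19 clock genes was called, with a median of 0.52; Per2 overlapped at 5.48, 10.3 and 10.5 RPKM in LF+CR livers and 5.88, 6.41 and 2.48 RPKM in LF+Ex livers, and LF+Ex 3 had the lowest clock list mean of the 6 libraries. Among genes that modify chromatin and RNA, 0 of 10 DNA methylation genes, 2 of 52 histone modifier genes (Kdm5b and Hdac10, both lower) and 1 of 13 microRNA machinery genes (Tut4, higher, 0.62 ± 0.16, adjusted p = 0.021) were called. Dicer1 was at 4.45, 4.14 and 4.31 against 4.31, 4.23 and 3.91 RPKM, and Dnmt1, listed at 0 in LF+CR 2, at 1.49, 0 and 2.12 against 1.64, 1.65 and 0.865 RPKM. Sirt1 did not overlap, at 2.4, 2.3 and 1.8 against 1.76, 1.05 and 0.335 RPKM, and was not called (0.68 ± 0.28, adjusted p = 0.13). In the sirtuin and NAD list 1 of 17 genes rose, Nadsyn1; in stress responses 2 of 23 (Atf4 and Dnajb9) and 1 of 19 (Hspa9) rose; in the proteasome 2 of 32 rose (Psmd5 and Psma4); and in autophagy 1 of 22 fell (Gabarapl1). These shares, like that of the microRNA machinery, lie near those of all genes and say nothing particular of the lists. None of 21 apolipoprotein, 16 cell cycle or 11 immediate early genes was called. With 1 library left out, limma no longer called Inhbe without LF+CR 1, LF+Ex 1 or LF+Ex 3 (adjusted p = 0.0572 to 0.0675), Inhbc without LF+Ex 1 (adjusted p = 0.0655), Trf without LF+CR 1, LF+Ex 1 or LF+Ex 3 (adjusted p = 0.0515 to 0.103), Bmp6 without LF+CR 1, LF+CR 2 or LF+Ex 3 (adjusted p = 0.0962 to 0.15), Tut4 without LF+CR 2, LF+CR 3, LF+Ex 1 or LF+Ex 3 (adjusted p = 0.0542 to 0.0795), Kdm5b without LF+CR 1, LF+CR 2, LF+Ex 1 or LF+Ex 2 (adjusted p = 0.0564 to 0.103), Hdac10 whichever of the 6 libraries was left out (adjusted p = 0.057 to 0.144), Nadsyn1 without LF+CR 3, LF+Ex 1 or LF+Ex 3 (adjusted p = 0.0518 to 0.0681), Atf4 without LF+CR 1, LF+CR 3, LF+Ex 1, LF+Ex 2 or LF+Ex 3 (adjusted p = 0.0748 to 0.195), Dnajb9 without LF+CR 1, LF+CR 2, LF+Ex 1 or LF+Ex 2 (adjusted p = 0.134 to 0.154), Hspa9 without LF+CR 2 (adjusted p = 0.0518), Psmd5 without LF+CR 1, LF+CR 2 or LF+Ex 1 (adjusted p = 0.0588 to 0.0756), Psma4 whichever of the 6 libraries was left out (adjusted p = 0.0595 to 0.173) and Gabarapl1 without LF+CR 1, LF+CR 3, LF+Ex 1 or LF+Ex 3 (adjusted p = 0.0846 to 0.159). The 2 against 2 comparison without the pancreas libraries did not call Inhbe, Inhbc, Trf, Bmp6, Tut4, Kdm5b, Hdac10, Nadsyn1, Atf4, Dnajb9, Hspa9, Psmd5, Psma4 and Gabarapl1 (adjusted p = 0.111 to 0.317).

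Markers of other liver cells gave few calls, to be read against the 10.2% of all genes called. Of 19 stellate and matrix genes Postn rose (0.61 ± 0.17, adjusted p = 0.0387), or 5.26% of the list. Of 11 endothelial genes Oit3 (0.51 ± 0.15, adjusted p = 0.0367) and Fcgr2b (0.32 ± 0.1, adjusted p = 0.0462) rose, or 18.2%. After median-of-ratios scaling 0 stellate and 0 endothelial genes were called, so these counts say nothing particular of the lists. Of 5 bile duct markers 0 were called, and of 14 acinar markers 0. Alas2, the erythroid first enzyme of heme synthesis, was at 7.2, 11.6 and 10.4 RPKM in LF+CR livers and 40.5, 41.5 and 30.2 RPKM in LF+Ex livers (-1.85 ± 0.24, adjusted p = 0.000331), while the 3 globin genes of the same list were not called, with -0.1, -0.085 and -0.27. Car3, listed as an adipocyte marker and also made by hepatocytes, was at 118, 219 and 309 against 581, 609 and 1478 RPKM (-2.01 ± 0.56, adjusted p = 0.034), and the other 2 tested adipocyte markers, Cfd (0.36) and Fabp4 (0.32), were not called. Of 14 hepatocyte markers 5 rose and 1 fell, or 42.9% of the list, with a median of -0.04. After median-of-ratios scaling 2 were higher and 2 lower. The hepatocyte marker count of 5 was 1 without LF+CR 1, 2 without LF+CR 2, 2 without LF+CR 3, 1 without LF+Ex 1 and 1 without LF+Ex 3. Taking out 1 library ended the call of Postn without LF+CR 2, LF+CR 3, LF+Ex 1 or LF+Ex 2 (adjusted p = 0.103 to 0.131, differences of 0.52 to 0.58), Oit3 whichever of the 6 libraries was left out (adjusted p = 0.0581 to 0.111, differences of 0.46 to 0.59), Fcgr2b whichever of the 6 libraries was left out (adjusted p = 0.0748 to 0.156, differences of 0.28 to 0.36) and Car3 without LF+CR 1, LF+CR 2, LF+Ex 1 or LF+Ex 3 (adjusted p = 0.0578 to 0.145, differences of -1.57 to -2.24). Setting the pancreas libraries aside ended the calls of Postn, Oit3, Fcgr2b and Car3 (adjusted p = 0.111 to 0.19).

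**Figure D2:**
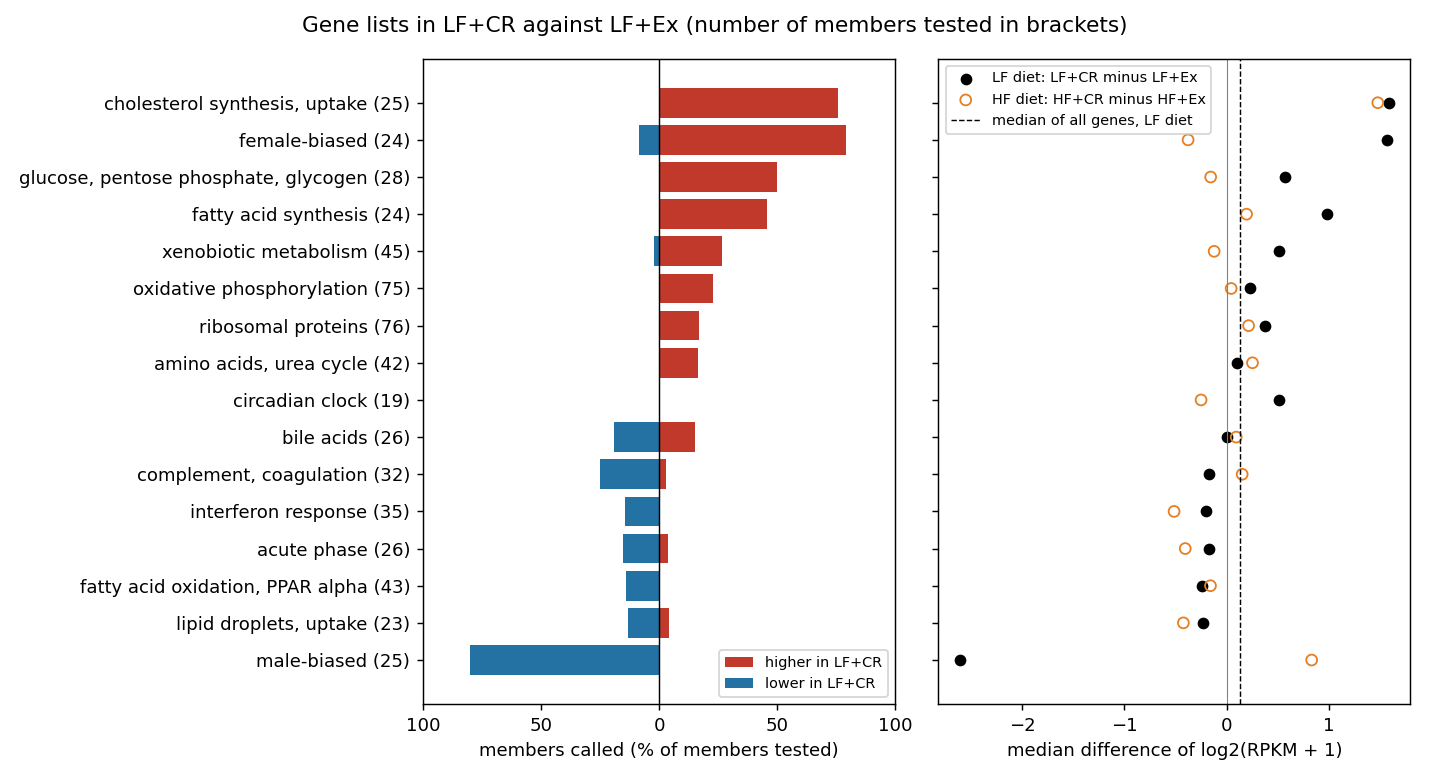
Share of the tested members of each list called higher (right) or lower (left) in LF+CR against LF+Ex, in percent, and the median difference of log2(RPKM + 1) of the list on the LF diet (filled) and on the HF diet (open), with the median of all genes on the LF diet, 0.132, as a dashed line. Cholesterol genes lie at 1.59 and 1.48 on the LF and HF diets, female-biased genes at 1.57 and -0.38, and male-biased genes at -2.61 and 0.83.

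Each treatment was also set against the LF diet alone, where both comparisons share the LF libraries and each shares a group with LF+CR against LF+Ex, so that only their own values are given side by side. LF+CR against LF gave 673 called genes (6.5%), 312 higher (3.01%) and 361 lower (3.49%), and LF+Ex against LF gave 0 (0%) by limma, with 944 genes at an unadjusted p under 0.05, 2 called with a pseudocount of 0.1 and 1 with only the LF diet libraries in the fit. Cholesterol genes had medians of 1.28 in LF+CR against LF and -0.26 in LF+Ex against LF, with 16 of 25 called higher in the first. Fatty acid synthesis had 0.97 and -0.028, with 10 of 24 higher, and glycolysis and glycogen 0.58 and -0.044, with 10 of 28 higher. No member of these 3 lists was called in LF+Ex against LF. Fatty acid oxidation had -0.54 and -0.25, with 16 of 43 lower in LF+CR against LF.

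The sex-biased lists were displaced from LF to either side. Male-biased genes had medians of -1.51 in LF+CR against LF, 14 of 25 called lower, and 0.83 in LF+Ex against LF, where 23 of 25 were positive and 0 called. Female-biased genes had 1.37 with 13 of 24 higher and 1 lower, and -0.42 with 0 called. Elovl3 was at 51.9, 53.9 and 47 RPKM in the LF libraries, all above its LF+CR values and within the range of its LF+Ex values. Its differences were -4.56 ± 0.66 for LF+CR (adjusted p = 0.0015) and 0.8 ± 0.66 for LF+Ex (adjusted p = 0.637). Mup20, at 4563, 10439 and 9572 RPKM in LF livers, had -4.86 ± 0.44 (adjusted p = 2.53e-05) and 0.96 ± 0.44 (adjusted p = 0.538). Slc22a26, at 1.21, 2.63 and 1.41 RPKM in LF livers, had 2.45 ± 0.24 (adjusted p = 8.61e-05) and -1.3 ± 0.24 (adjusted p = 0.243), and every LF+CR value was above and every LF+Ex value below the LF values. Cyp2b9, at 85.2, 66.2 and 57.8 RPKM in LF livers, had 1.53 ± 0.74 and -4.4 ± 0.74, neither called (adjusted p = 0.239 and 0.243). By arithmetic its difference between LF+CR and LF+Ex is the first minus the second, of which the second is the larger. Both parts use the same LF libraries, and an effect of either treatment is not shown by them. Whether LF+Ex moved these lists from LF is not settled by a count of 0.

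The same treatments on the HF diet share no library with LF+CR and LF+Ex. HF+CR against HF+Ex gave 191 called genes (1.84%), 119 higher (1.15%) and 72 lower (0.695%), and a median of all genes of 0.035. Groups did not overlap for 1524 genes higher (14.7%) and 847 lower (8.18%) in HF+CR. Of the 779 genes higher in LF+CR 564 (72.4%) had the same sign on the HF diet, where 56.2% of all genes are positive, 43 were called the same way and 11 the other way. Of the 280 lower genes 136 (48.6%) had the same sign, where 43.8% of all genes are negative, 8 were called the same way and 15 the other way. Across all genes the differences on the 2 diets had a Pearson r of 0.0068 and a Spearman rho of 0.202, a description over genes that are not independent. The difference between the diets itself was called in 248 genes (2.39%), 109 more positive on the LF diet (1.05%) and 139 more negative (1.34%).

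Cholesterol genes were higher under CR than under Ex on both diets. In HF+CR against HF+Ex 14 of 25 were higher and 0 lower, the median was 1.48, and 0 had a called difference between diets, with a median difference of 0.037. Idi1 was at 93.9, 118 and 27.8 RPKM in HF+CR livers and 5.88, 11.1 and 14.7 RPKM in HF+Ex livers (2.65 ± 0.49, adjusted p = 0.0102). Insig1 was at 156, 183 and 117 against 24.7, 37.1 and 58.5 RPKM (1.96 ± 0.33, adjusted p = 0.00749). The interval of the difference between diets is wide for single genes, 0.019 ± 0.69 for Idi1 and 0.42 ± 0.46 for Insig1 (SE), so these values do not show that the diets act alike. Fatty acid synthesis had a median of 0.2 on the HF diet with 2 of 24 higher, and 3 of its genes were called between diets. Fasn was at 57.4, 83.7 and 46.6 RPKM in HF+CR livers and 22.2, 39.6 and 55.8 RPKM in HF+Ex livers (0.71 ± 0.47, adjusted p = 0.483; between diets 2.4 ± 0.67, adjusted p = 0.0774), and Elovl6 differed between diets by 2.49 ± 0.54 (adjusted p = 0.0217). In glycolysis and glycogen 0 of 28 genes were called on the HF diet and 9 between diets, all more positive on LF.

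The sex-biased genes differed between the diets. On the HF diet 4 of 25 male-biased genes were higher and 0 lower in HF+CR, with a median of 0.83, and 19 had a called difference between diets, all more negative on LF. Of 24 female-biased genes 0 were higher and 3 lower in HF+CR, with a median of -0.38; 13 were called between diets as more positive and 1 as more negative on LF. Serpina1e was at 4512, 1488 and 1413 RPKM in HF+CR livers and 53.9, 50.9 and 18.3 RPKM in HF+Ex livers (5.8 ± 0.97, adjusted p = 0.00749; between diets -12.04 ± 1.37, adjusted p = 0.000208). Slco1a1 was at 92.9, 85.1 and 10.5 against 2.41, 0.45 and 0.564 RPKM (4.52 ± 0.8, adjusted p = 0.00913; between diets -9.81 ± 1.13, adjusted p = 0.000208). Both were lower in LF+CR than in LF+Ex and higher in HF+CR than in HF+Ex.

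Cyp2b13 gave the reverse pair of signs. It was at 0.0205, 0.254 and 0 RPKM in HF+CR livers and 14.3, 7.12 and 9.86 RPKM in HF+Ex livers (-3.35 ± 0.4, adjusted p = 0.00112), and the difference between diets was 8.25 ± 0.57 (adjusted p = 2.35e-06), the smallest adjusted p of all genes. Cyp2a22 was at 14.5, 15.9 and 16.3 RPKM in LF+CR livers and 1.03, 0.825 and 5.15 RPKM in LF+Ex livers (2.55 ± 0.46, adjusted p = 0.00356), but at 0.507, 1.03 and 1.18 against 18.7, 19.4 and 23.8 RPKM on the HF diet (-3.51 ± 0.46, adjusted p = 0.00199). Cux2, tested only through its level in LF+CR, had 0.0134 RPKM on average in HF+CR livers and 0.007 RPKM in HF+Ex livers (0.009 ± 0.18, adjusted p = 0.989). Its difference between diets, 2.87 ± 0.25 (adjusted p = 2.08e-05), is favoured by the same filter and is no independent support. F11, coagulation factor XI, was at 8.43, 11.2 and 15.2 against 18.7, 20.3 and 19.5 RPKM on the LF diet and at 48.9, 45 and 39.9 against 13, 16 and 14.1 RPKM on the HF diet, with -0.74 ± 0.18 and 1.57 ± 0.18 (between diets -2.31 ± 0.25, adjusted p = 0.000183). Mup20 did not follow Serpina1e: on the HF diet it was at 6523, 2497 and 5720.2 against 7942, 7198 and 5326 RPKM (-0.57 ± 0.44, adjusted p = 0.56). HF+CR 1 is a pancreas library; without the 3 pancreas libraries 34 genes were called on the HF diet and 64 between diets. Leaving out HF+CR 3 raised these counts to 434 and 567, and leaving out HF+CR 1 lowered them to 64 and 131. Of these genes, the call was lost in F11 without LF+CR 1, LF+CR 2, LF+Ex 1 or LF+Ex 3 (adjusted p = 0.0516 to 0.0933). Without the pancreas libraries the calls of Cyp2a22 and F11 were lost (adjusted p = 0.0797 to 0.176).

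**Figure D3:**
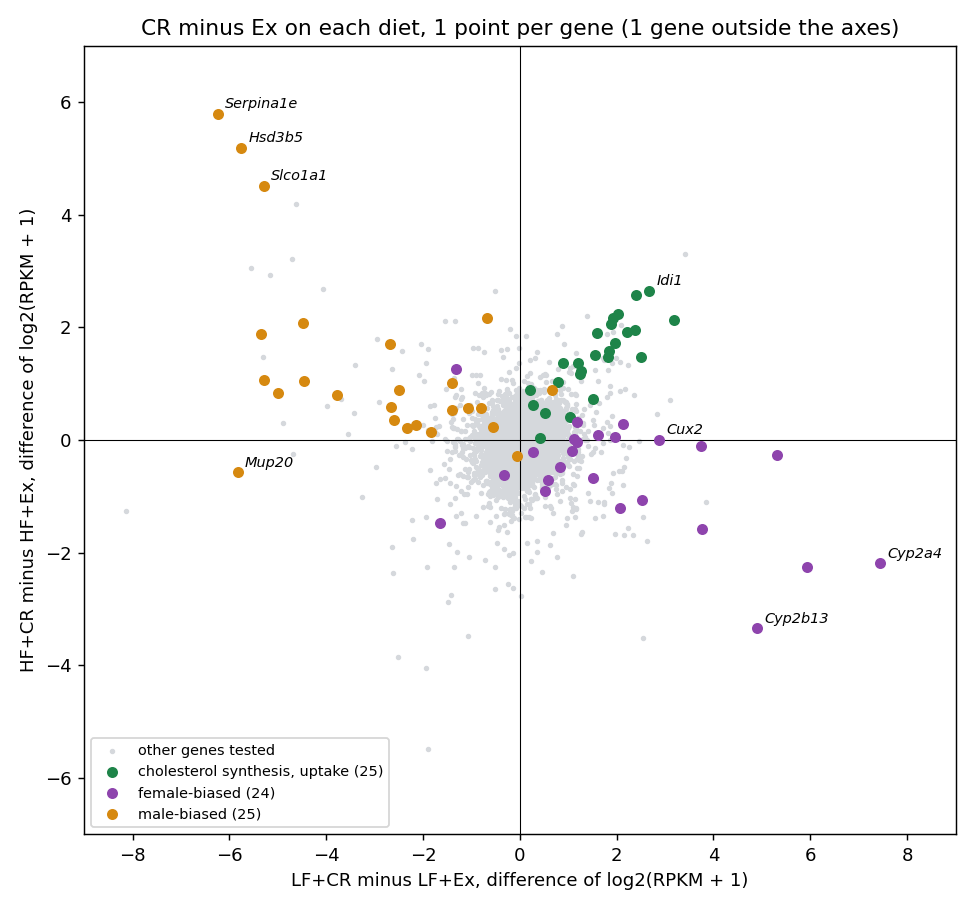
Difference of log2(RPKM + 1) between HF+CR and HF+Ex (vertical) against that between LF+CR and LF+Ex (horizontal), 1 point per tested gene, with 3 lists in colour; Alb, listed at 0 in some libraries, lies outside the axes. Cholesterol genes lie in the upper right, male-biased genes mostly in the upper left (Serpina1e at -6.24 and 5.8) and female-biased genes mostly in the lower right (Cyp2b13 at 4.9 and -3.35).

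**Figure D4:**
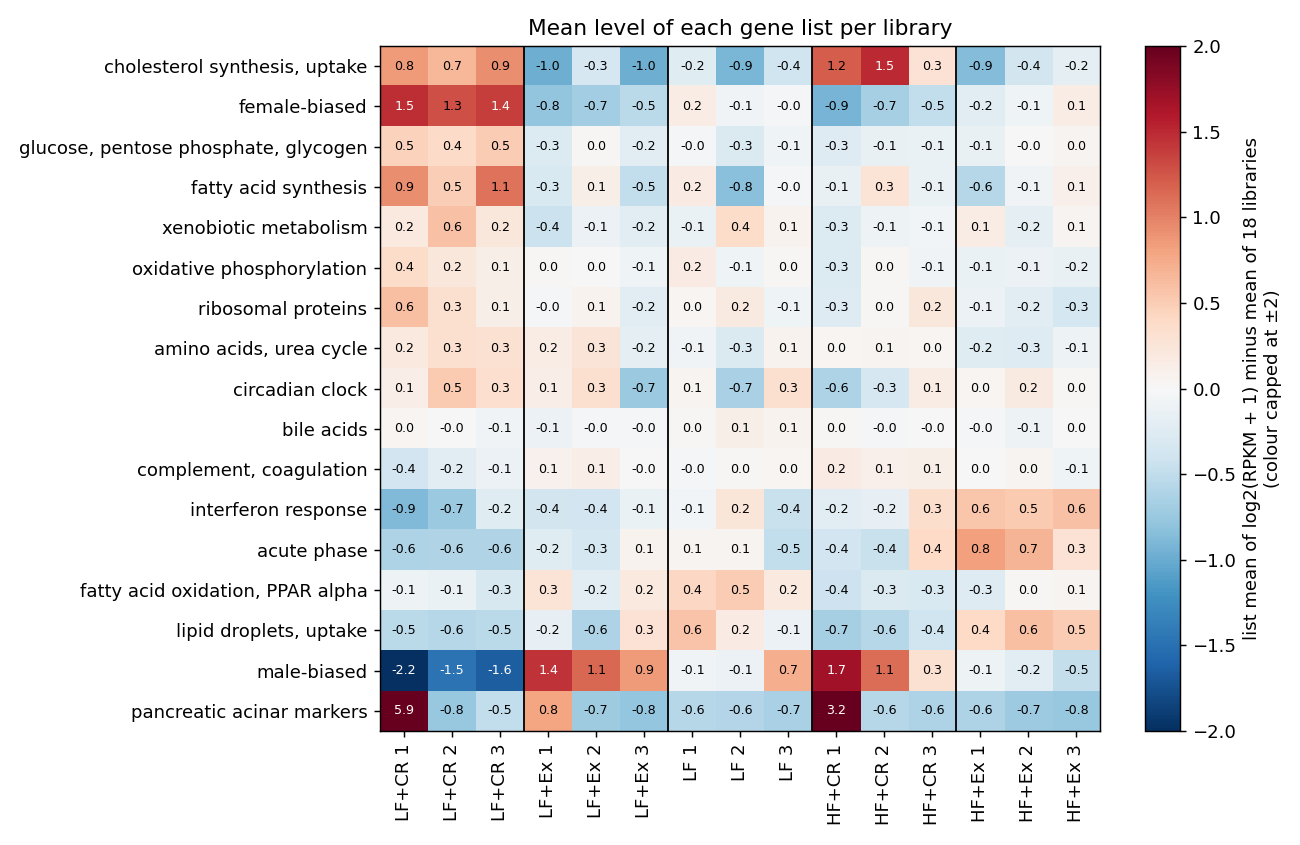
Mean log2(RPKM + 1) of each gene list in each of 15 libraries minus its mean over the 18, with red above and blue below that mean and the value written in each cell. The 3 LF+CR libraries are lowest for male-biased and highest for female-biased genes, and the acinar row stands out in LF+CR 1, HF+CR 1 and, less so, LF+Ex 1.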

How the data were processed

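PolyA RNA of 18 liver libraries, 3 for each of 6 groups, was measured, with the group and number of each library read from its title. The authors deposited 1 RPKM value for each RefSeq transcript and library. They used TopHat 1.4.1, Cufflinks 1.3.0 and the mm10 genome, per the submitters' processing notes, and the annotation version is not given in the sources used here. Of 30582 rows, 30003 were named through RefSeq and 180 through GENCODE, and 399 kept an identifier and were not named in the text. The row with the highest mean stood for a gene. Fragments of near-identical paralogs may be split between them, and 0.637% of the tested values were exactly 0, which can be failed estimates.

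Values were analysed as log2(RPKM + 1) with limma 3.58.1 in R 4.3.3, with 1 mean for each of the 6 groups over the 18 libraries, 12 residual degrees of freedom and a trended moderated variance. Every p is two-sided and Benjamini-Hochberg adjusted over 10356 genes, and a gene was called at under 0.05. A pseudocount of 1 understates differences of low genes. The model was tested on simulated data. Depth is unknown; its estimate rests on the steps of low values in transcripts of 1000 to 4000 bases.

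The groups, gene lists and members were chosen with earlier results of these data known. The rule for named genes took the 12 largest called differences each way, up to 4 from each list by adjusted p, 8 from the difference between diets, and others whatever their result; of these, 119 were kept and some genes are not reported here; further members were named after their values were seen. No set test was run. Alternatives were another pseudocount, filters, scalings, variance moderation, libraries in the fit, summed rows, a replicate block, a pancreas covariate and leaving out libraries.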

Additional observations from a re-analysis of the deposited data

Results flagged for a closer look

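The difference between CR and Ex was itself different between the LF and HF diets, by limma's test of the interaction, in 248 genes. Of the genes named by rule and reported 43 are among them. Each is given with LF+CR minus LF+Ex, HF+CR minus HF+Ex and the first minus the second, in log2(RPKM + 1). Some HF differences were not called by limma, so a reversed sign on the HF diet is not shown for them. Among them the adjusted p was 0.0598 for Hsd3b5, 0.269 for Mup1, 0.201 for Mup14, 0.182 for Elovl3 and 0.519 for Cyp2a4. It was 0.151 for Cyp2b9, 0.491 for Mup11, 0.496 for Mup21, 0.0816 for C6 and 0.0964 for C8a. For Cyp4a12a it was 0.4725, for Cyp2b10 0.0976, for Nqo1 0.28, for Alas2 0.214 and for Gbe1 0.196, and these are not all. In HF+CR livers Hsd3b5 was at 202, 152 and 1.02 RPKM and Mup1 at 1097, 240 and 12.3 RPKM. Serpina1e, Slco1a1, Cyp2b13 and Cyp2a22 were among those called on the HF diet. The most negative differences between diets were those of Serpina1e (LF -6.24, HF 5.8, between diets -12.04), Hsd3b5 (LF -5.76, HF 5.19, between diets -10.95) and Slco1a1 (LF -5.29, HF 4.52, between diets -9.81). Further male-biased or secreted protein genes of this kind were Elovl3 (LF -5.35, HF 1.88, between diets -7.23), Cyp4a12a (LF -5, HF 0.83, between diets -5.84), Serpina4-ps1 (LF -4.72, HF 3.22, between diets -7.94) and Serpina1a (LF -0.63, HF 0.83, between diets -1.46). The major urinary protein genes were Mup1 (LF -5.56, HF 3.06, between diets -8.62), Mup14 (LF -5.16, HF 2.94, between diets -8.1), Mup11 (LF -5.3, HF 1.48, between diets -6.78), Mup21 (LF -5.29, HF 1.07, between diets -6.36) and Mup20 (LF -5.83, HF -0.57, between diets -5.26). Of complement, lectin and coagulation genes there were C8a (LF -4.46, HF 1.05, between diets -5.52), C6 (LF -3.41, HF 1.33, between diets -4.74), C9 (LF -2.32, HF 0.22, between diets -2.54), Mbl1 (LF -0.97, HF 0.26, between diets -1.23), C4bp (LF -0.83, HF 0.04, between diets -0.87) and F11 (LF -0.74, HF 1.57, between diets -2.31). Enzymes with a negative difference were Alas2 (LF -1.85, HF 0.61, between diets -2.46), Cyp2f2 (LF -1.9, HF 0.18, between diets -2.08), Cyp4a32 (LF -1.71, HF 0.1, between diets -1.81), Scp2 (LF -0.9, HF 0.1, between diets -1) and Acox2 (LF -0.74, HF 0.09, between diets -0.83). Regulators with a negative difference were Irf9 (LF -1.37, HF 0.38, between diets -1.75), Inhbc (LF -0.93, HF 0.38, between diets -1.31) and Kdm5b (LF -0.42, HF 0.44, between diets -0.86). The most positive differences between diets were those of the cytochromes Cyp2a4 (LF 7.45, HF -2.19, between diets 9.64), Cyp2b13 (LF 4.9, HF -3.35, between diets 8.25), Cyp2b9 (LF 5.93, HF -2.26, between diets 8.19) and Cyp2a22 (LF 2.55, HF -3.51, between diets 6.06). Female-biased genes outside the cytochromes were Slc22a27 (LF 3.76, HF -1.58, between diets 5.34), Slc22a26 (LF 3.75, HF -0.11, between diets 3.86) and Cux2 (LF 2.88, HF 0.01, between diets 2.87). Xenobiotic and transport genes were Cyp2b10 (LF 2.54, HF -1.36, between diets 3.9), Cyp2c38 (LF 1.97, HF -1.67, between diets 3.64), Cyp2c39 (LF 1.72, HF -1.34, between diets 3.06), Nqo1 (LF 1.75, HF -1.09, between diets 2.84) and Slco1a4 (LF 2.04, HF -0.55, between diets 2.59). Genes of glucose and lipid synthesis and 1 matrix gene were Elovl6 (LF 2.18, HF -0.31, between diets 2.49), Ppp1r3g (LF 2.84, HF 0.47, between diets 2.37), Gpi1 (LF 0.99, HF -0.29, between diets 1.28), Gbe1 (LF 0.92, HF -0.42, between diets 1.34) and Postn (LF 0.61, HF -0.82, between diets 1.43). Cux2 and Ppp1r3g were tested only through their level in LF+CR, which favours a difference between diets, so theirs are no independent support. Pancreatic transcripts were highest in LF+CR 1, HF+CR 1 and LF+Ex 1, and without these libraries 64 genes were called between diets. Groups of 3 libraries were not searched for single values far from the rest.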

How the results depend on the processing

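Of the 100 named genes called in LF+CR against LF+Ex, 31 were called the same way in every one of the 25 alternatives that tested them. The filter on a mean of at least 5 RPKM tested only 102 of the 119 named genes. Cux2 and Ppp1r3g, among the 31, were tested only through their level in LF+CR and are no independent support. The count of 1059 called genes (779 higher, 280 lower) became 545 (353 higher) with only the 6 libraries in the fit, 483 (313 higher and 170 lower) with the LF diet libraries, 479 higher with the pancreas covariate, and 116 (65 higher and 51 lower) without the pancreas libraries. Median-of-ratios scaling gave 363 higher and 493 lower, and quantile normalization 397 and 442; the causes were not tested. LF+CR against LF gave 673 genes, but 271 with the LF diet libraries, 420 with the covariate and 215 without the pancreas libraries. LF+Ex against LF gave 0, but 2 with a pseudocount of 0.1 and 1 with the LF diet libraries. HF+CR against HF+Ex gave 191, but 298 after quantile normalization and 34 without the pancreas libraries, and the difference between diets 248, but 64 without them.

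Leaving out 1 library at a time gave 379 to 1238 called genes in LF+CR against LF+Ex, 254 to 893 higher and 122 to 345 lower. It gave 58 to 434 in HF+CR against HF+Ex, 131 to 567 between diets, 250 to 781 in LF+CR against LF and 0 to 4 in LF+Ex against LF. A lone pair of libraries is then assumed to vary like the other groups. Deviations of same-numbered LF+CR and LF+Ex libraries from their group means correlated at 0.171, 0.038 and -0.04. Differently numbered pairs lay between -0.137 and 0.141. So few correlations, from deviations that are not independent, cannot decide whether the numbers mark a shared batch. With the replicate block 1014 genes were called.

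Signs turned round only in genes that were not called. Median-of-ratios scaling gave Cyp4a14 -0.115, Dicer1 -0.083 and G6pc -0.11, and quantile normalization Dicer1 -0.086 and G6pc -0.067. Summed rows gave Dnmt1 0.059. The covariate gave Ctrb1 -0.273, Cyp4a14 -0.096, G6pc -0.231 and Prss2 -0.454, and leaving out the pancreas libraries Cyp7a1 0.473. Over the left-out libraries the differences ran in Ctrb1 -0.471 to 4.027, Cyp4a14 -0.407 to 0.419, Cyp7a1 -0.771 to 0.375, Dnmt1 -0.577 to 0.244, G6pc -0.218 to 0.404, Pck1 -0.188 to 0.475, Prss2 -0.659 to 3.357, Socs2 -0.694 to 0.003. The causes were not tested. Depth is unknown, so no counting error stands beside low values.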
